A study of Mus musculus with 6 samples.

Results

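Mouse major histocompatibility complex (MHC) genes and the genes that load and regulate MHC molecules were followed in CD8+ T cells with and without L-4F. The genes were taken by symbol: every gene of the deposited table that starts with H2-, together with B2m, Tap1, Tap2, Tapbp, Tapbpl, Erap1, Nlrc5, Ciita and Cd74. This gave 41 of 24559 genes. Class I heavy chain genes made up 19 of them, class I assembly and control genes 7, class I pseudogenes 2 and class II genes 12. The remaining one, H2-Ke6, lies in the same region but encodes no MHC molecule. Classes follow the symbols, so some annotated pseudogenes are counted elsewhere. H2-Q3 (unprocessed pseudogene) and H2-Q5, H2-T10 and H2-Bl (polymorphic pseudogenes) are among the heavy chain genes. H2-Pa (unprocessed pseudogene) is among the class II genes.

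MHC class I molecules stand on nearly all nucleated cells and show peptides from proteins made inside the cell to CD8+ T cells. Peptides cut by the proteasome are carried into the endoplasmic reticulum by the TAP transporter, trimmed there, and loaded onto a heavy chain that is paired with the light chain encoded by B2m. MHC class II molecules show peptides from engulfed material to CD4+ T cells and are made mainly by B cells, dendritic cells and macrophages. Mouse T cells are known for abundant class I and little class II.

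RNA sequencing was done on CD8+ T cells from the spleen of wild-type C57 BL/6 mice, which the labels call primary culture cells, to ask how apolipoprotein A1 acts on their immune functions. One group had been treated with L-4F, a peptide made to mimic apolipoprotein A1, which is the chief protein of HDL particles. The control group had been given ABCT buffer. Its composition, the peptide dose, the duration and any activation of the cells are not stated in the labels. There were 3 libraries per group, and genotype, tissue and cell type were the same in both. Nothing in the labels ties the libraries of a group to separate animals or cultures, and the spread behind each p-value may therefore be technical.

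Promoters of class I and class II genes are known to share the X2 box and the Y box, which are bound by the complexes that recruit the coactivators NLRC5 (class I) and CIITA (class II). The proximal promoters of H2-K1, H2-Q7, B2m and H2-Aa are shown because the first of these is the most abundant class I heavy chain gene here and rose, the second fell, the third encodes their shared partner and the last is a class II gene. Each is the run of 150 bases before the RefSeq transcript start (build GRCm38.p6), 5′ to 3′ on the strand of the gene. H2-K1 is at chr17:34000348-34000497 on the minus strand, H2-Q7 at chr17:35439005-35439154 on the plus strand, B2m at chr2:122147537-122147686 on the plus strand and H2-Aa at chr17:34287824-34287973 on the minus strand. Capitals mark matches, on either strand, to TGACG (core of the X2 box), CCAAT (core of the Y box) and the core of the interferon-stimulated response element. The capitals TGACGTCA of H2-Aa are overlapping matches to TGACG on both strands.
H2-K1: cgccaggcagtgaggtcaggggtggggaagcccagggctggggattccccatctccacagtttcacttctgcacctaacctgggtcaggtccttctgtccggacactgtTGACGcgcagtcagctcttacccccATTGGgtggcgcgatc
H2-Q7: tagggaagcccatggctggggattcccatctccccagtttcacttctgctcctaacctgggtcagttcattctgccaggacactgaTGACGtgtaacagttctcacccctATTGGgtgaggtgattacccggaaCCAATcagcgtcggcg
B2m: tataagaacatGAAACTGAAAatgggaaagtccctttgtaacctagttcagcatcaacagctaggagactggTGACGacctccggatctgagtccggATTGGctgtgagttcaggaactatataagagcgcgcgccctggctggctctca
H2-Aa: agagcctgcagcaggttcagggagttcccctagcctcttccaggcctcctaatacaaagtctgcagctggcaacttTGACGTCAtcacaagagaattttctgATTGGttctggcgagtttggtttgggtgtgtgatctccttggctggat

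In these 4 sequences TGACG is followed downstream by CCAAT on the opposite strand, read as ATTGG. From first base to first base the distance was 25 bases in H2-K1 and B2m, 24 in H2-Q7 and 26 in H2-Aa. H2-D1 and H2-M3 held the same pair at 25 bases. This pair at 24 to 26 bases, a spacing chosen after the matches were seen, was present in 5 of the 13 tested class I genes and 1 of the 7 tested class II genes with a RefSeq promoter, and in 0.116% of all 32851 promoters of the same length (300 bases, 250 before to 50 after the start). In these counts a gene holds a motif if any of its promoters does, while the percent is of single promoters. CCAAT alone was present in 11 of the 13 class I genes, 7 of the 7 class II genes and 37.4% of all promoters. TGACG was present in 8, in 1 and in 20.8%, and the interferon-stimulated response element core in 4, in 0 and in 3.44%. B2m held the latter motif, as did H2-T22, H2-T23 and Erap1. Only this run of letters was searched, so other forms of the element would be missed, in H2-K1 and H2-Q7 as in the other promoters. A match is a run of letters and not a measured binding site.

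The libraries held 25073292 to 31332003 reads. Expression is given below as normalized reads, the deposited values taken back from the log2 scale. Differences are L-4F minus buffer on the log2(normalized reads + 1) scale. A gene is called higher or lower at an adjusted p under 0.05 (limma, Benjamini-Hochberg over 14922 tested genes). Of all tested genes 38.2% were called, 18.4% higher and 19.7% lower. The CD8 T cell markers Cd8a, Cd8b1, Cd3e, Cd3d, Cd3g, Trac and Gzmb summed to 5015 to 5063 CPM (reads scaled to the library total) in buffer and 5380 to 5481 CPM with L-4F, and 5 of the 7 were called higher. The 4 CD4 T cell markers summed to 24.9 to 27.0 and 23.6 to 24.8 CPM, with 1 called lower, and the 9 natural killer cell markers to 278 to 288 and 293 to 305 CPM, with 4 called higher. Most of the natural killer cell sum was Eomes, at 223 CPM on average, which was not called. The labelled cell type thus carried its defining markers in each library. Differences also moved with transcript length over all genes, with a median of 0.20 in the decile of shortest transcripts and -0.28 in that of the longest, so the log2 differences of the 34 tested genes are plotted below also after a smooth length trend was removed from each library, and the text gives that value where it ends a call or turns a direction. With the trend removed 13.5% of tested genes were called higher and 12.9% lower. Of the CD8 T cell markers 4 were then called higher and 1 lower, and of the natural killer cell markers 2 higher.

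Of the 41 genes 34 had enough reads to be tested. L-4F was accompanied by higher class I transcripts for both classical heavy chains, the light chain and part of the loading complex, and by lower transcripts of their regulator Nlrc5. Of these, the light chain gene B2m (0.03, adjusted p = 0.367) and Nlrc5 (-0.00, adjusted p = 0.995) were not called once the length trend was removed. In all, 17 of the 34 were called higher (50%) and 5 lower (14.7%), against 18.4% and 19.7% of all tested genes. The median difference was 0.15, and over all tested genes it was -0.00. Among class I heavy chain, assembly and control genes 12 of 21 were called higher and 4 lower, and among class II genes 2 of 10 higher and 1 lower. The 3 L-4F libraries lay wholly above the buffer libraries for 16 genes and wholly below for 5, which makes 21 of 34. Over all tested genes the groups did not overlap for 47.6%, with L-4F above for 23.2% and below for 24.4%. With the length trend removed 11 of the 34 were called higher and 2 lower. The authors' deposited table listed 22 of these genes at an FDR under 0.05, and all 22 were called here. The heavy chain genes are close paralogs whose reads may have been split between them, so their calls are not independent of each other.

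**Figure D1:**
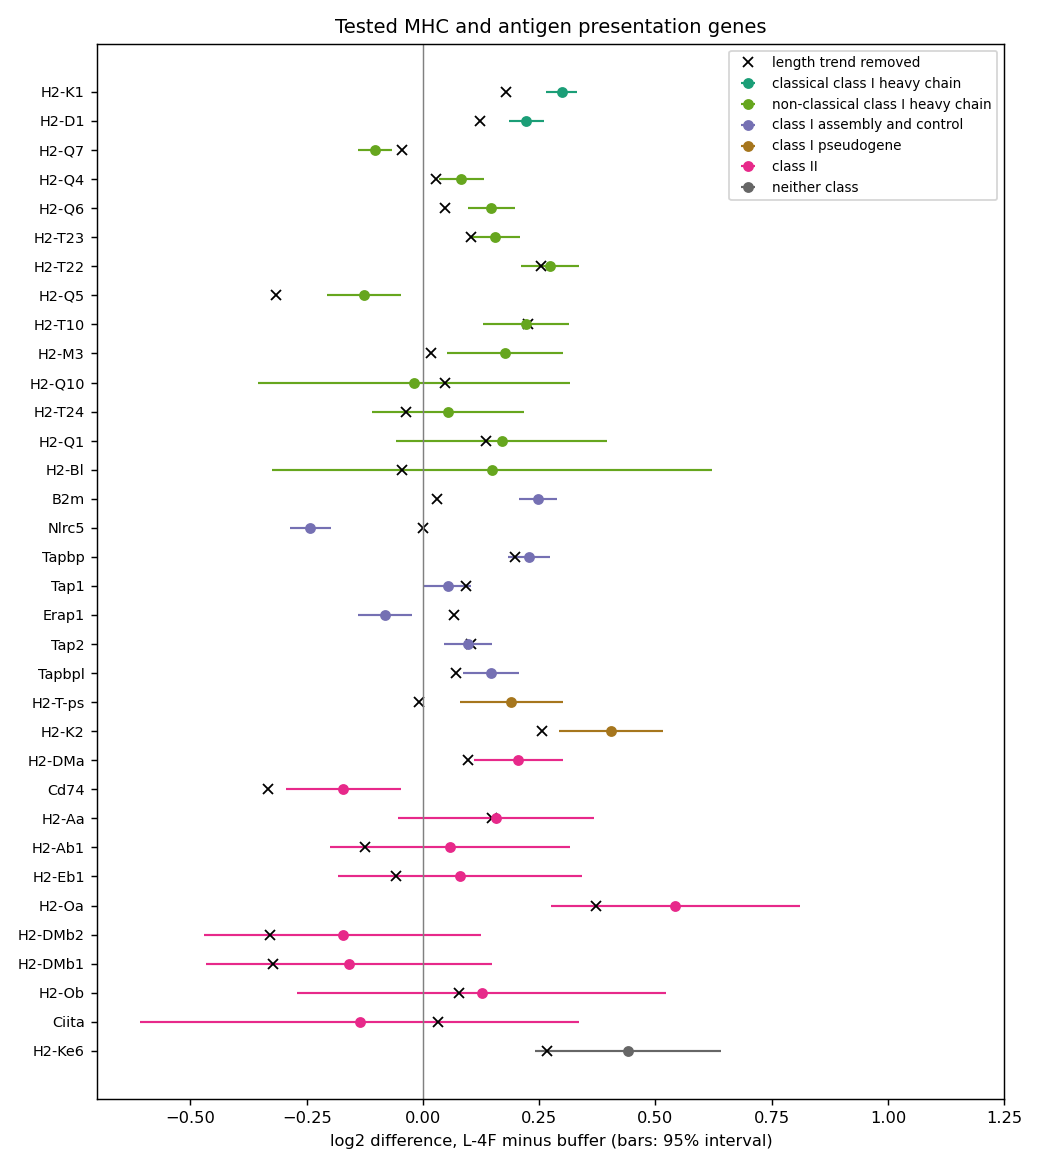
Log2 difference, L-4F minus buffer, of the 34 tested genes with 95% intervals (dots and bars, coloured by class), and the value after removal of the length trend (crosses). The classical heavy chains H2-K1 (0.30) and H2-D1 (0.22) lie to the right of 0, Nlrc5 moves from -0.24 to -0.00 when the trend is removed, and most class II intervals cross 0.

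The classical class I heavy chains, which present peptides to CD8+ T cells, were both higher with L-4F. H2-K1 (chromosome 17, 33996017 to 34000347 in GRCm38, ENSMUSG00000061232) encodes the K heavy chain. It had 58924, 58377 and 58951 normalized reads in the buffer libraries and 73619, 70958 and 72187 in the L-4F libraries. All L-4F libraries were above all buffer libraries, and the means of 58750 ± 324 and 72254 ± 1332 (SD, n = 3) differed 1.23-fold. The log2 difference was 0.30 (SE 0.0161, adjusted p = 3.51e-12, limma). H2-D1 (chromosome 17, 35262730 to 35267499, ENSMUSG00000073411) encodes the D heavy chain. It had 44289, 43229 and 43459 normalized reads in buffer and 51964, 50916 and 49937 with L-4F, again without overlap. Its means were 43659 ± 558 and 50939 ± 1014 (SD, n = 3), with a log2 difference of 0.22 (SE 0.0178, adjusted p = 1.81e-09, limma). Both stayed called with smaller differences under removal of the length trend (0.18 and 0.12) and under quantile normalization (0.13 and 0.06). Of 50-base windows of their transcripts, 8.1% of those of H2-K1 and 14.3% of those of H2-D1 also occur in other genes.

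The light chain was called higher too. B2m (chromosome 2, 122147686 to 122153083, ENSMUSG00000060802), which shares no 50-base window with another gene, had 64968, 65002 and 63766 normalized reads in buffer and 76031, 74489 and 79406 with L-4F. The groups were apart, with means of 64579 ± 704 and 76642 ± 2515 (SD, n = 3). The log2 difference was 0.25 (SE 0.0193, adjusted p = 5.26e-09, limma). Its longest transcript has 860 nt, which places it among the short genes, and the call was lost when the trend in transcript length was removed (0.03, adjusted p = 0.367). Removal of the exon length trend (0.05, adjusted p = 0.162) and quantile normalization (0.03, adjusted p = 0.22) also ended it. Per kilobase of its longest transcript B2m was the most abundant of the 34 genes, with 75092 normalized reads per kb in buffer, before H2-K1 with 31350 and H2-D1 with 20770.

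**Figure D2:**
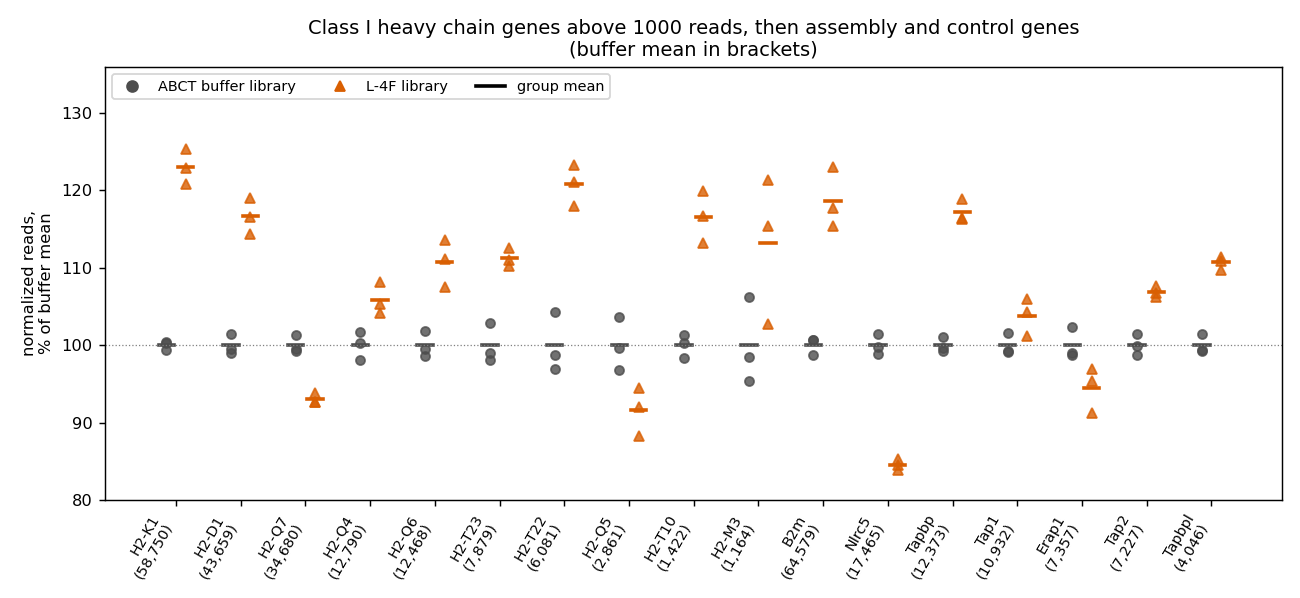
Normalized reads in each library as a percent of the gene's buffer mean, for the 10 most abundant class I heavy chain genes and the 7 assembly and control genes. Grey circles are the 3 buffer libraries, orange triangles the 3 L-4F libraries and bars the group means. The L-4F libraries of H2-K1, H2-T22, B2m and Tapbp lie above those of buffer, and those of H2-Q7, H2-Q5, Nlrc5 and Erap1 below.

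The non-classical heavy chains, which show less variation between mice and present narrower sets of ligands, went in both directions. Of 12 tested 6 were called higher, 2 lower and 4 neither, against 18.4% higher and 19.7% lower among all tested genes. Their median difference was 0.15. The Q genes held both directions. H2-Q7, one of the genes for Qa-2, was the most abundant of them and fell from 35139, 34415 and 34486 normalized reads in buffer to 32529, 32144 and 32150 with L-4F. Its L-4F libraries were all lower, with means of 34680 ± 399 and 32274 ± 221 (SD, n = 3) and a log2 difference of -0.10 (SE 0.0176, adjusted p = 6.08e-05, limma). The neighbouring H2-Q6, which also belongs to the Qa-2 genes, rose from 12414, 12701 and 12289 to 14162, 13850 and 13412, a log2 difference of 0.15 (adjusted p = 4.26e-05). These neighbours thus had opposite signs with no overlap between groups in either. Of the 50-base windows of H2-Q6 32.0% occur in other genes, 13.9% in H2-Q7. Of those of H2-Q7 28.4% occur in other genes, most often in H2-Q10 (15.2%). The split of reads among such genes is therefore uncertain. Summed, H2-Q6 and H2-Q7 had 47552, 47116 and 46776 normalized reads in buffer and 46691, 45993 and 45562 with L-4F, a ratio of 0.977, which was not tested.

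H2-Q5, annotated as a polymorphic pseudogene, fell from 2851, 2965 and 2767 to 2524, 2633 and 2704 normalized reads (log2 difference -0.13, SE 0.038, adjusted p = 0.011). The groups did not overlap, and 35.4% of its windows occur in other genes, most often in H2-Q7. H2-Q4 had 13013, 12538 and 12817 normalized reads in buffer and 13828, 13470 and 13323 with L-4F, a small rise of 0.08 (adjusted p = 0.00728). It overlaps Gm11131 on the opposite strand over 19.1% of its exon length. Over H2-Q4, H2-Q5, H2-Q6 and H2-Q7 together the sum was 62798 ± 550 in buffer and 62243 ± 738 with L-4F (SD, n = 3), a ratio of 0.991, and the groups overlapped. The difference of the means of this sum was about as large as the spread within a group. With the length trend removed H2-Q5 was at -0.32 and stayed called, and the others were not called: H2-Q7 at -0.05 (adjusted p = 0.0517), H2-Q6 at 0.05 (0.154) and H2-Q4 at 0.03 (0.395). Removal of the exon length trend gave -0.02 for H2-Q4 and 0.01 for H2-Q6, neither called, and quantile normalization gave -0.26 for H2-Q7. The call of H2-Q5 was lost without buffer library 2 (-0.10, adjusted p = 0.0804) and without L-4F library 1 (-0.10, adjusted p = 0.0615), and that of H2-Q4 without buffer library 2 (0.07, adjusted p = 0.0606).

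The 3 most abundant T genes were all called higher. H2-T22 had 5897, 6006 and 6340 normalized reads in buffer and 7365, 7176 and 7500 with L-4F, a log2 difference of 0.27 (SE 0.0297, adjusted p = 1.91e-07). H2-T10, its close relative, rose from 1398, 1440 and 1426 to 1660, 1705 and 1609 (0.22, adjusted p = 0.000371). Both are known as ligands of a subset of gamma delta T cells, and the groups did not overlap in either. H2-T23, which encodes Qa-1, the ligand of the CD94/NKG2A inhibitory receptor, rose from 7729, 7802 and 8107 to 8748, 8683 and 8870 (0.15, adjusted p = 4.99e-05). H2-T22 shares 32.0% of its windows with H2-T10, and the sum of H2-T10, H2-T22 and H2-T23 was 15382 ± 440 in buffer and 17772 ± 208 with L-4F (SD, n = 3), 1.16-fold higher. All 3 T genes stayed called with the length trend removed, at 0.25, 0.22 and 0.10 for H2-T22, H2-T10 and H2-T23. H2-T22 and H2-T10 each overlap an exon of a gene on the opposite strand, over 29.4% and 27.1% of their exon length. These partners held 1.29 to 6.00 normalized reads on average. Whether the counting used strand is not stated.

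H2-M3, which presents formylated peptides, had 1146, 1109 and 1236 normalized reads in buffer and 1413, 1343 and 1195 with L-4F. It was called higher (0.18, adjusted p = 0.0249), but L-4F library 3 lay inside the buffer range. The call was lost without buffer library 1 (adjusted p = 0.0838), without buffer library 2 (0.12), and without L-4F library 1 (0.143) or 2 (0.0688), and with the length trend removed (0.02, adjusted p = 0.878). The 4 heavy chains not called were H2-Q10, H2-T24, H2-Q1 and H2-Bl. H2-Q10, known as a secreted heavy chain of liver, had 652 and 639 normalized reads on average (-0.02, 95% interval -0.35 to 0.32), and H2-T24 had 483 and 502 (0.05, -0.11 to 0.22). H2-Q1 had 319 and 360 (0.17, -0.06 to 0.40), and without L-4F library 2 it was called (0.30, adjusted p = 0.0222). H2-Bl had 43.0 and 47.1 (0.15, -0.33 to 0.62). Each of these intervals includes 0.15, the median difference of the tested heavy chain genes. After removal of the length trend the uncalled values turned to 0.05 for H2-Q10, -0.04 for H2-T24 and -0.04 for H2-Bl.

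Summed over the 19 heavy chain genes, which does not depend on how reads were split among them, class I reads were 184250, 182281 and 183268 in buffer and 209318, 204376 and 204583 with L-4F. All L-4F libraries were higher, 1.12-fold by the means of 183266 ± 984 and 206092 ± 2795 (SD, n = 3). Heavy chain and B2m reads together went from 0.900% to 1.01% of all reads. The makeup of the heavy chain reads also shifted. H2-K1 took 32.0%, 32.0% and 32.2% of them in buffer and 35.2%, 34.7% and 35.3% with L-4F, and H2-Q7 took 19.1%, 18.9% and 18.8% in buffer and 15.5%, 15.7% and 15.7% with L-4F. H2-D1 went from 23.8% to 24.7%, so that both classical genes together went from 55.9% to 59.8%. For every read of B2m there were 2.84 ± 0.035 heavy chain reads in buffer and 2.69 ± 0.0994 with L-4F (SD, n = 3). The groups did not overlap in any of these shares, none of which was tested. The sums and shares were not computed with the length trend removed. The log2 differences were then 0.03 for B2m, 0.18 for H2-K1, 0.12 for H2-D1 and -0.05 for H2-Q7. The ratio of heavy chain to B2m reads may therefore depend on that trend. In bulk samples fewer cells of a type and less RNA per cell cannot be told apart.

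**Figure D3:**
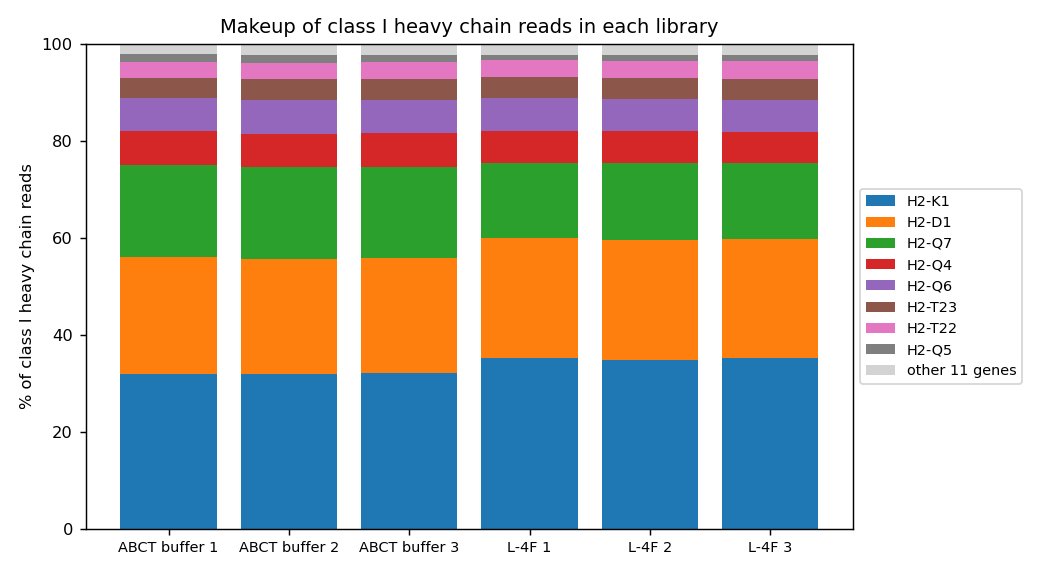
Share of each gene in the summed class I heavy chain reads of each library, in percent. The 3 L-4F libraries have a larger H2-K1 share (34.7% to 35.3%) than the buffer libraries (32.0% to 32.2%) and a smaller H2-Q7 share (15.5% to 15.7% against 18.8% to 19.1%).

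Of the 7 class I assembly and control genes 4 were called higher, 2 lower and 1 neither, at a median of 0.10. Among all tested genes 18.4% were called higher and 19.7% lower. With the length trend removed 3 of the 7 were called higher and 0 lower, against 13.5% and 12.9% of all tested genes. The chaperones of the heavy chain were among the 4 first called higher. Tapbp (chromosome 17, 33915899 to 33929292), which encodes tapasin, the bridge between the heavy chain and TAP, had 12507, 12281 and 12332 normalized reads in buffer and 14714, 14384 and 14400 with L-4F. The groups were far apart, with means of 12373 ± 119 and 14500 ± 186 (SD, n = 3) and a log2 difference of 0.23 (SE 0.0218, adjusted p = 2.62e-08). It was at 0.20 with the length trend removed, still called. Tapbp overlaps Gm19412 on the opposite strand over 24.9% of its exon length. Tapbpl, which encodes the tapasin-related peptide editor TAPBPR, rose from 4104, 4014 and 4019 to 4507, 4486 and 4440 (0.15, adjusted p = 0.000354), and was not called with the length trend removed (0.07, adjusted p = 0.0739) or the exon length trend removed (0.03, adjusted p = 0.495).

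The subunits of the TAP peptide transporter differed little. Tap2 rose from 7333, 7131 and 7215 to 7780, 7718 and 7681 normalized reads (0.10, adjusted p = 0.00373), without overlap, and was not called with median centring (0.06, adjusted p = 0.0836) or with 1 prior spread for all genes (0.10, adjusted p = 0.0685). Gm15821 and Gm20496 on the opposite strand cover 18.5% of its exon length. Tap1 had 11109, 10835 and 10851 in buffer and 11396, 11056 and 11582 with L-4F, with overlapping groups and no call (0.05, 95% interval 0.00 to 0.10, adjusted p = 0.0889). It was called without L-4F library 2 (0.07, adjusted p = 0.0217), under quantile normalization (0.06, adjusted p = 0.0489) and after removal of the length trend (0.09, adjusted p = 0.00551). Erap1, the peptidase that trims peptides in the endoplasmic reticulum, shares 11.5% of its exon length with Cast on the opposite strand. It had 7283, 7260 and 7528 in buffer and 6710, 7128 and 7014 with L-4F (-0.08, adjusted p = 0.0244). Its direction turned when the length trend was removed (0.07, adjusted p = 0.0761), and its call was lost without buffer library 3 (-0.07, adjusted p = 0.131) and without L-4F library 1 (-0.06, adjusted p = 0.137).

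Nlrc5, the class I transactivator, was called lower, while both classical heavy chains and B2m were called higher. H2-Q7, H2-Q5 and Erap1 were called lower too. Nlrc5 (chromosome 8, 94434356 to 94527272, ENSMUSG00000074151) had 17420, 17714 and 17261 normalized reads in buffer and 14751, 14897 and 14645 with L-4F, well apart. The means were 17465 ± 229 and 14764 ± 127 (SD, n = 3), a ratio of 0.845 and a log2 difference of -0.24 (SE 0.0209, adjusted p = 5.88e-09). Its longest transcript of 7578 nt was the longest among the tested members. With the length trend removed the difference was -0.00 (adjusted p = 0.995), and with the exon length trend removed it was -0.10 (adjusted p = 0.000588).

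**Figure D4:**
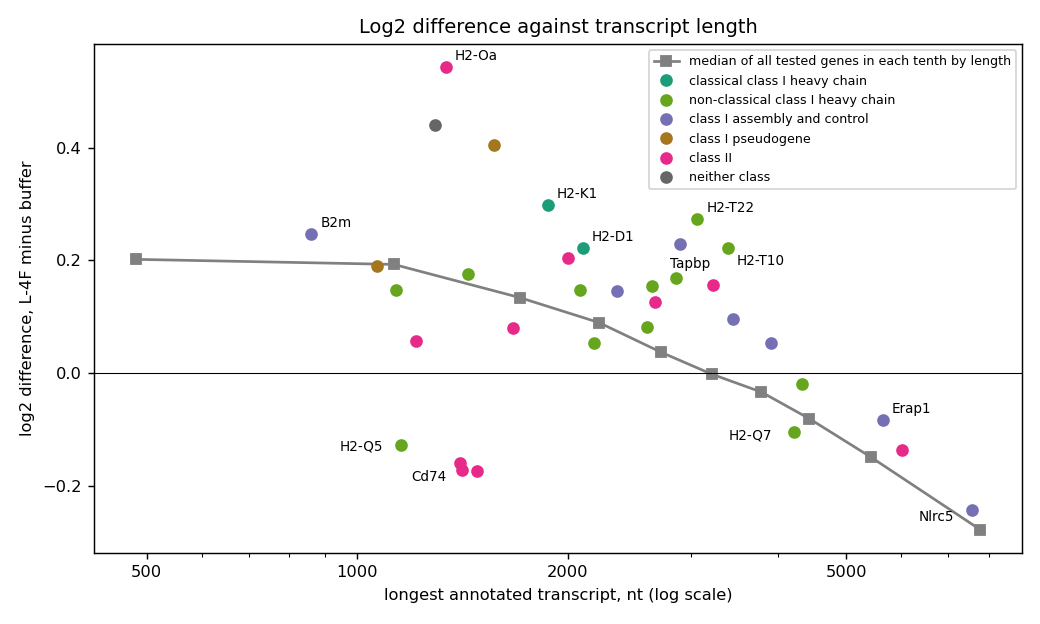
Log2 difference of each tested gene against the length of its longest annotated transcript in nt (log scale), with the median of all tested genes in each length decile (grey squares). B2m and Nlrc5 lie near the grey line at either end, while H2-K1, H2-D1, Tapbp, H2-T22 and H2-T10 lie above it and H2-Q5 and Cd74 below it.

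The 2 genes counted as class I pseudogenes were also higher. H2-K2 had 880, 925 and 868 normalized reads in buffer and 1208, 1186 and 1145 with L-4F (0.40, SE 0.0534, adjusted p = 2.83e-06), and stayed called with the length trend removed (0.26, adjusted p = 0.000876). H2-T-ps had 1096 ± 13.1 and 1252 ± 75.8 (SD, n = 3; 0.19, adjusted p = 0.00682), and its direction turned to -0.01 with the length trend removed (adjusted p = 0.922). It shares 29.4% of its windows with other genes, most with H2-T23. H2-Ke6, which encodes a hydroxysteroid dehydrogenase, had 471, 434 and 393 normalized reads in buffer and 564, 518 and 689 with L-4F (0.44, adjusted p = 0.00106). Since 96.3% of its windows lie also in the readthrough gene Gm20427, its value is uncertain, and with 1 prior spread for all genes it was not called (adjusted p = 0.0554).

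Class II genes were low in these cells, and most did not differ detectably at this depth. Summed class II reads, Cd74 and Ciita included, were 4025, 3932 and 3881 in buffer and 4403, 4180 and 4102 with L-4F (3946 ± 73.2 and 4228 ± 156, SD, n = 3), 1.07-fold higher. For each class II read there were 46.5 class I heavy chain reads in buffer and 48.8 with L-4F. Of 10 class II genes tested 2 were called higher (20%), 1 lower (10%) and 7 neither, at a median of 0.07. Among all tested genes 18.4% were called higher and 19.7% lower. H2-DMa and Cd74 alone made up most of the sum, since the other genes together had 1110 ± 25.1 and 1197 ± 28.1 normalized reads.

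Genes of the chains that form the class II peptide groove were not called. The A molecule pairs the H2-Aa and H2-Ab1 chains, and no gene for an E alpha chain is among the 41, so H2-Eb1 stands alone here. H2-Aa, the A alpha chain, had 225, 246 and 220 normalized reads in buffer and 254, 272 and 244 with L-4F, overlapping at the edge (0.16, 95% interval -0.05 to 0.37, adjusted p = 0.242). H2-Ab1, the A beta chain, had 188 and 194 on average (0.06, -0.20 to 0.32). H2-Eb1, the E beta chain, had 171 and 181 (0.08, -0.18 to 0.34). Per kilobase of the longest transcript these were 71.4, 155 and 103 normalized reads per kb in buffer, against 31350 for H2-K1. Each of the 3 intervals includes 0.22, the difference of H2-D1, and with the length trend removed H2-Ab1 was at -0.13 and H2-Eb1 at -0.06, neither called.

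The class II chaperones split. H2-DMa encodes the alpha chain of DM, the peptide exchange factor. It had 1955, 1931 and 1891 normalized reads in buffer and 2410, 2129 and 2130 with L-4F, without overlap (1925 ± 32.1 and 2223 ± 162, SD, n = 3; 0.20, SE 0.0462, adjusted p = 0.00118). The call was lost with 1 prior spread for all genes (adjusted p = 0.0577) and after removal of the length trend (0.10, adjusted p = 0.128). Its beta chain genes were not called: H2-DMb2 had 123 and 109 (-0.17, 95% interval -0.47 to 0.13) and H2-DMb1 had 113 and 101 (-0.16, -0.47 to 0.15). Of their windows 29.5% and 27.2% occur in other genes, mostly in each other, so the split between them is uncertain. H2-DMa was at 960 normalized reads per kb in buffer, and H2-DMb2 and H2-DMb1 were at 83.1 and 80.7. H2-DMa overlaps Brd2 on the opposite strand over 10.4% of its exon length, and Brd2, with 12187 and 11652 normalized reads, was called lower (-0.06, adjusted p = 0.0253), so if the counting did not use strand their reads cannot be told apart there.

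H2-Oa encodes the alpha chain of DO, an inhibitor of DM, and was called higher. It had 145, 133 and 187 normalized reads in buffer and 235, 210 and 227 with L-4F, all higher (155 ± 28.2 and 224 ± 12.8, SD, n = 3; 0.54, SE 0.129, adjusted p = 0.00184). It was at 0.37 and still called with the length trend removed (adjusted p = 0.036). Over 22.8% of its exon length it overlaps BC051537 on the opposite strand, which had 13.1 and 20.3 normalized reads. H2-Ob, the beta chain of DO, had 75.5 and 82.3 (0.13, 95% interval -0.27 to 0.52) and was not called.

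Cd74 encodes the invariant chain, which occupies the class II groove until a peptide is loaded. It had 938, 918 and 874 normalized reads in buffer and 773, 845 and 807 with L-4F, all lower (910 ± 32.7 and 809 ± 36.2, SD, n = 3; -0.17, SE 0.059, adjusted p = 0.0259). The fall was larger with the length trend removed (-0.33, adjusted p = 0.000186). The call did not hold without buffer library 1 (-0.15, adjusted p = 0.11) or 2 (-0.16, 0.0757), without L-4F library 1 (-0.14, 0.101) or 3 (-0.17, 0.0528), or with 1 prior spread for all genes (-0.17, 0.0578). Ciita, the class II transactivator, had 50.2, 69.8 and 41.2 normalized reads in buffer and 41.2, 48.7 and 54.1 with L-4F (-0.14, 95% interval -0.61 to 0.34, adjusted p = 0.678), and the value turned to 0.03 with the length trend removed. At 8.95 normalized reads per kb in buffer it was the lowest of the tested genes.

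**Figure D5:**
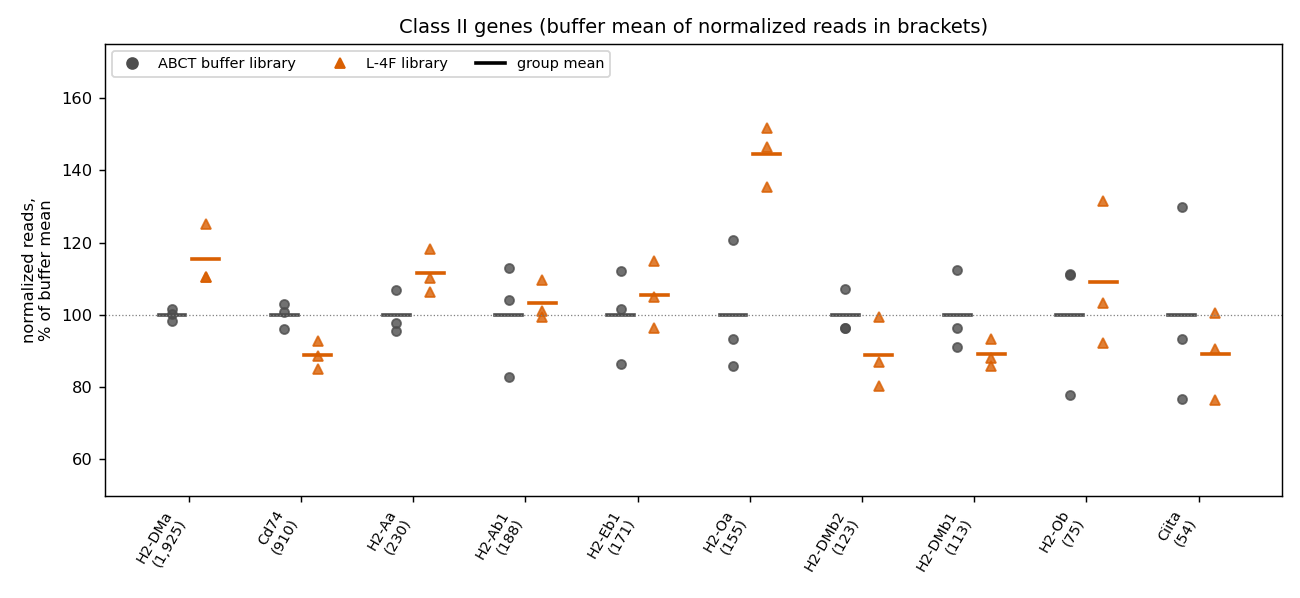
Normalized reads of the 10 tested class II genes in each library, as a percent of the gene's buffer mean (given in brackets). Grey circles are buffer libraries, orange triangles L-4F libraries and bars the means. The groups are apart for H2-DMa, Cd74 and H2-Oa and overlap for the other 7.

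Cells that make class II were looked for by their markers. The B cell markers summed to 353 to 361 CPM in buffer and 348 to 368 CPM with L-4F, nearly all of it Ighm, and without Ighm to 15.5 to 16.9 and 17.7 to 20.2 CPM. Of 9 tested 1 was called higher, Cd79b. The dendritic cell markers summed to 228 to 229 and 224 to 227 CPM, and without Ccr7 to 18.0 to 19.5 CPM in buffer and 15.3 to 17.1 CPM with L-4F, and 1 of 6 tested, Zbtb46, was called lower. The macrophage and monocyte markers summed to 76.6 to 86.1 and 74.1 to 77.2 CPM, with 1 of 11, Mpeg1, called lower. None of the listed markers found in the table was at 0 in all libraries. Cd79b went from 187 to 269 normalized reads on average, while Ighd went from 109 to 94.1 and was not called (adjusted p = 0.331). Zbtb46 went from 87.5 to 55.3. Batf3 went from 191 to 153 (adjusted p = 0.0609) and Fscn1 from 75.5 to 91.8 (adjusted p = 0.217), neither called. The part of B cells, dendritic cells and macrophages in the class II differences was not tested.

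The 7 genes below the filter were H2-Q2, H2-M2, H2-T3, H2-Q3, H2-M5, H2-Pa and H2-Eb2. H2-Q2 was the highest of them with 8.68 and 13.4 normalized reads on average. H2-M2 had 6.10 and 2.55. The other 5 were at 0 in at least 3 libraries, where a count of 0 allows up to 2.64 to 3.34 normalized reads (3 reads, counting error only).

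Genes that work with class I or class II outside the set of 41 were counted from lists, to be read beside the 18.4% of all tested genes called higher and the 19.7% called lower. Of the 6 immunoproteasome and activator genes, which make and favour peptides suited to class I, 5 were called higher and 1 lower, with and without the length trend. Psmb8, Psmb9 and Psmb10, the immunoproteasome subunits, rose by 0.30, 0.29 and 0.46 on the log2 scale, and Psme1 and Psme2, the interferon-inducible activator PA28, by 0.36 and 0.44. With the length trend removed they were at 0.18, 0.26, 0.29, 0.25 and 0.23. Psmb8 for example had 10718, 10324 and 10425 normalized reads in buffer and 13360, 13035 and 12318 with L-4F, and the groups did not overlap for any of these 5. Psme3, which encodes a nuclear activator of a different kind, fell (-0.20).

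Of 11 genes of peptide loading and glycoprotein folding 5 were called higher and 4 lower, and 4 and 1 with the length trend removed. Pdia3, the ERp57 partner of tapasin, rose (0.15, and 0.11 with the trend removed). Calr, which encodes the chaperone calreticulin, was at 0.06 (adjusted p = 0.0242) and was not called with the trend removed (-0.03, adjusted p = 0.384). Canx, the chaperone calnexin, was not called (-0.01, adjusted p = 0.753), and after removal of the trend it was at 0.05 (adjusted p = 0.0494). Lnpep, a trimming peptidase of endosomes, fell (-0.37) and was at 0.00 with the trend removed.

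Of 11 transcription factors of class I and class II promoters 3 were called higher (27.3%) and 2 lower (18.2%), against 18.4% and 19.7% of all tested genes. Irf1, which carries interferon signals to class I promoters, rose by 0.14 on the log2 scale and was not called after removal of the length trend (0.04, adjusted p = 0.137). Among the X box factors Rfx5 fell (-0.19, adjusted p = 0.0166; -0.12 with the trend removed, adjusted p = 0.182), while Rfxank (-0.07, adjusted p = 0.368) and Rfxap (0.19, adjusted p = 0.146) were not called.

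Of 8 tested genes of class II processing 4 were called higher and none lower, and the counts were the same with the length trend removed. Ctss, the protease that cuts the invariant chain, rose (0.36, and 0.19 with the trend removed). Ifi30, a lysosomal thiol reductase, rose (0.19), and was at -0.01 with the trend removed (adjusted p = 0.886). Lgmn was not called (-0.04, adjusted p = 0.885). None of the 4 tested class I-like genes was called, including Cd1d1 (0.21, 95% interval 0.03 to 0.39, adjusted p = 0.0613), which presents lipids, and Mr1 (0.11, -0.09 to 0.31, adjusted p = 0.421), which presents vitamin B metabolites. A filter at 10 CPM and limma-voom each called 1 of these genes.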

How the data were processed

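Per the labels' protocols, strand-specific libraries were made from total RNA with a TruSeq kit. StringTie 1.3.1c and FastQC (0.11.2, 0.11.5) appear in the submitters' processing notes. Aligner, build, annotation and the strand setting of the counting are not stated in the sources at hand. The deposited table held log2 values that the authors computed per library, which the values show to be log2 of scaled read counts plus 1. Whole reads came back for 100% of genes within 0.01 read. The authors' deposited p-values and FDR were used only where named.

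The log2 values of 14922 genes with at least 10 normalized reads in at least 3 of the 6 libraries were tested with limma 3.58.1 (R 4.3.3, statmod 1.5.0; trended, robust spread, group as the only term, Benjamini-Hochberg adjustment). The procedure was tested on simulated reads. Fold changes on the log2(value + 1) scale understate those of low genes. Coordinates, lengths and shared windows came from GENCODE M21 (GRCm38), promoters from RefSeq for 27 of the 41 genes. The length trend was a loess curve of span 0.3.

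The members and lists were chosen with earlier results of these data known. Every gene meeting the symbol rule was described, and the others were named by a rule that did not use their result. Exceptions, named after their values were seen, were Psme3, Cd79b, Ighd, Zbtb46, Batf3, Fscn1, Mpeg1, Eomes and overlapping genes. The marker sums without Ighm or Ccr7 were also added after the values were seen. Some items of the lists are not reported here. H2-K2 was placed with the pseudogenes after the table was seen. For pairs of libraries of 1 group the median chi-square was 2.19 to 2.72 times counting noise, so none was a copy. Alternatives were median centring, quantile normalization, scaling by total reads, other filters, 1 prior spread for all genes, limma-voom on the recovered reads, quality weights, a pseudocount of 0.1, a replicate block, length and GC trends removed, and each library left out. Removal of the exon length trend was added after seeing the data.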

Additional observations from a re-analysis of the deposited data

How the results depend on the processing

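Each tested member had 19 alternatives, or 18 for the 9 that the filter at 10 CPM leaves untested. For the 22 called members 368 of 417 values kept direction and call, 43 lost the call and 6 changed sign. For the 12 uncalled members 194 of 220 values kept direction and stayed uncalled, 5 gained a call and 21, in 7 members, changed sign without a call. Among called members the sign changed for Erap1 (0.066 with the length trend removed, 0.028 with the exon length trend removed), H2-T-ps (-0.0090 and -0.0042), H2-Q4 (-0.015, exon length) and H2-M3 (-0.0018, exon length); these settings remove a trend that runs over all genes. The count of class I members called lower, 4, was 2 with quantile normalization, 1 with 1 prior spread for all genes, 1 with the length trend removed and 2 to 4 with single libraries left out (2 without L-4F library 1). The count of class II members called higher, 2, was 1 with the filter at 10 CPM (which leaves H2-Oa untested), 1 with 1 prior spread and 1 with the length trend removed. The count of class II members called lower, 1, was 0 with 1 prior spread and 0 to 1 with single libraries left out. For peptide loading genes, 9 called, it was 5 with 1 prior spread, 5 with the length trend removed and 4 with the exon length trend removed. For transcription factors, 5 called, these settings gave 3, 3 and 3, and leaving out single libraries 3 to 6 (3 without buffer library 3 and without L-4F library 2). For class I-like genes, 0 called, the 10 CPM filter and limma-voom gave 1 each, and leaving out single libraries 0 to 1. Where no reason is given, the cause was not tested. With the replicate number as a block 5521 genes of the whole table were called, against 5694, and no count of members or of the antigen presentation lists changed, while called natural killer cell markers went from 4 to 3. Deviations of same-numbered libraries correlated at 0.0511, 0.0111 and 0.109, and those of differently numbered libraries at -0.0812 to 0.0305. With 3 libraries per group these values cannot decide whether the numbers pair the libraries. The main test used no pairing. Genes with few reads, among them Ciita, H2-Bl and H2-Ob, have intervals too wide to show differences of the size seen for H2-K1.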
